A study of Mus musculus with 23 samples.

Results

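Endothelial cells sorted from mammary tumours after 21 days of nintedanib were compared with those sorted after 7 days. The comparison used 8 of the 23 arrays of the study, chosen by their labels alone. The long-term group held 5 arrays and the short-term group 3. All of these cells came from tumours grown from Py2T, a murine breast cancer cell line, in the mammary fat pad of female FVB/N mice, and nintedanib was given at 50 mg per kg body weight. Another 3 arrays held endothelial cells of untreated tumours, which were matched in size to the tumours treated for 21 days. Tumour cells sorted from the same model were profiled on 5 arrays after 21 days, 4 after 7 days and 3 without treatment. The sources used here do not give the age of the mice, the antibodies of the sort, or whether 1 tumour supplied both an endothelial and a tumour cell array. Tumours treated for 21 days are also older than those treated for 7 days, so treatment time and tumour age cannot be told apart. The labels call the arrays of a group biological replicates.

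Nintedanib is a small molecule that blocks the receptor kinases for VEGF, FGF and PDGF. VEGF acts on receptors of endothelial cells to drive their division, survival and migration, FGF acts on endothelial and stromal cells, and PDGF released by endothelial cells recruits the pericytes that cover vessels. When vessels are lost, tissue oxygen falls and cells stabilise hypoxia-inducible factors, which switch on genes of glycolysis, lactate export and vessel growth. The title of the series names metabolic symbiosis and resistance to therapy against angiogenesis, and 7 and 21 days are its early and late times of treatment.

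Genes with the smallest p-values between 21 and 7 days included Pgk1, Mcm4 and Fgf2, which encode a glycolytic enzyme, a subunit of the replicative helicase and a fibroblast growth factor. Fold changes of these genes were 1.88, 1.98 and 0.414, as the ratio of 21 to 7 days. No gene passed the test over the whole array. Of 19938 genes, 0 (0.0%) had a Benjamini-Hochberg adjusted p under 0.05 in limma's fit of the 11 endothelial arrays, and the lowest adjusted p was 0.312. At an unadjusted p under 0.05 there were 1875 genes (9.4%), 816 higher (4.09%) and 1059 lower (5.31%) after 21 days, against 997 expected at this threshold if no gene differed. Without the 3 endothelial arrays highest in macrophage markers the count at this threshold was 997. Without 7-day replicate 2 the adjusted test called 5 genes. A single fit over all 23 arrays, with one spread for endothelial and tumour cells, called 262 genes (1.31%), 142 higher (0.712%) and 120 lower (0.602%). Tumour cell arrays varied less, with a median residual SD per gene of 0.156 against 0.255 in endothelial arrays, and the residual SD of the 262 genes in the 23-array fit was at the median 0.822 times that in the endothelial fit. All values below are log2 differences of 21 minus 7 days with their standard errors from the endothelial fit, unless another fit is named. None of them passed in that fit, so the values describe these arrays. Where an adjusted p of the 21 minus 7 day difference from the 23-array fit is printed beside a gene, it is the lowest over the alternatives tried, and the highest for the same genes was 0.87 to 0.939.

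The arrays carried the transcripts of blood vessel endothelium. The 14 blood vessel endothelial markers averaged 9.95 to 10.28 on the log2 scale in the 21-day arrays and 9.82 to 10.38 in the 7-day arrays, against 4.02 to 4.23 in 21-day and 3.88 to 4.11 in 7-day tumour cells. Cdh5, the adhesion molecule of endothelial junctions, had 11.91, 12.15, 11.93, 11.60 and 12.18 in the 21-day arrays, against 11.39, 12.27 and 12.24 in the 7-day arrays. The groups overlapped, and the difference was -0.02 ± 0.22. Array signals have no zero, and markers of B cells and of T and NK cells averaged 3.45 to 3.92 in the 21-day arrays, against 3.72 to 4.04 in the 7-day arrays.

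Transcripts that mark other cell types were set beside these values. Macrophage and monocyte markers averaged 4.71, 5.09, 7.15, 6.37 and 5.73 in the 21-day arrays, against 4.38, 4.70 and 4.59 in the 7-day arrays. All 18 measured markers had a positive difference, 0 passed, and the median was 1.18, beside -0.04 and 42.2% positive over all genes. In the untreated arrays these markers averaged 7.00, 5.19 and 5.16. The median difference from the untreated arrays was -1.22 after 7 days and 0.08 after 21 days. Lyz2, the lysozyme of macrophages, had 7.05, 9.64, 11.71, 11.65 and 10.73 in the 21-day arrays, against 4.81, 6.81 and 6.87 in the 7-day arrays. The 21-day arrays stood above the 7-day arrays and spread over a wider range, with replicates 3 and 4 highest. In the complement gene C1qc, replicate 1 of the 21-day group (6.36) lay among the 7-day arrays (4.80, 6.65 and 6.33).

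Markers of fibroblasts and of pericytes and smooth muscle lay on the other side. Of 12 fibroblast markers, 9 were lower after 21 days, with list means of 5.75 to 6.97 in the 21-day arrays and 6.44 to 7.18 in the 7-day arrays. Of 12 pericyte and smooth muscle markers, 10 were lower, with list means of 5.38 to 5.63 in the 21-day arrays and 5.71 to 6.10 in the 7-day arrays, which did not overlap. Over all genes 42.2% had a positive difference. Some lists of dimmer markers were mostly lower too, with 11 of 12 for T and NK cells, 7 of 7 for adipocytes and 4 of 7 for mast cells. Their medians were -0.11, -0.16 and -0.01, against -0.56 for fibroblast and -0.31 for pericyte and smooth muscle markers. In the untreated arrays the fibroblast list averaged 6.01 to 6.57 and the pericyte and smooth muscle list 5.33 to 5.79. Median differences from the untreated arrays were 0.59 and 0.38 after 7 days, and -0.06 and 0.01 after 21 days, in the same order. Tagln, an actin-binding protein of smooth muscle, had 4.77, 5.0, 5.16, 5.18 and 4.93 in the 21-day arrays, against 6.84, 5.95 and 6.08 in the 7-day arrays. All 21-day values lay under all 7-day values, as in 3.9% of all genes, with a difference of -1.28 ± 0.26. Rgs5, a pericyte regulator of G protein signals, differed by -1.97 ± 0.63 and Thy1, a surface protein of fibroblasts, by -2.17 ± 0.65. Abcc9 and Kcnj8, which encode subunits of an ATP-sensitive potassium channel of pericytes, differed the other way, by 1.63 ± 0.42 and 0.81 ± 0.32. Of 14 epithelial and tumour cell markers, 8 had a positive and 6 a negative difference, with a median of 0.06. Their means were 5.21, 5.80, 5.93, 6.91 and 5.19 in the 21-day arrays, against 5.46, 5.68 and 5.87 in the 7-day arrays. The value of 21-day replicate 4 lay above the 5.90 to 6.51 of 21-day tumour cells. In such bulk samples, fewer cells of a type and less of an RNA per cell cannot be told apart.

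**Figure D1:**
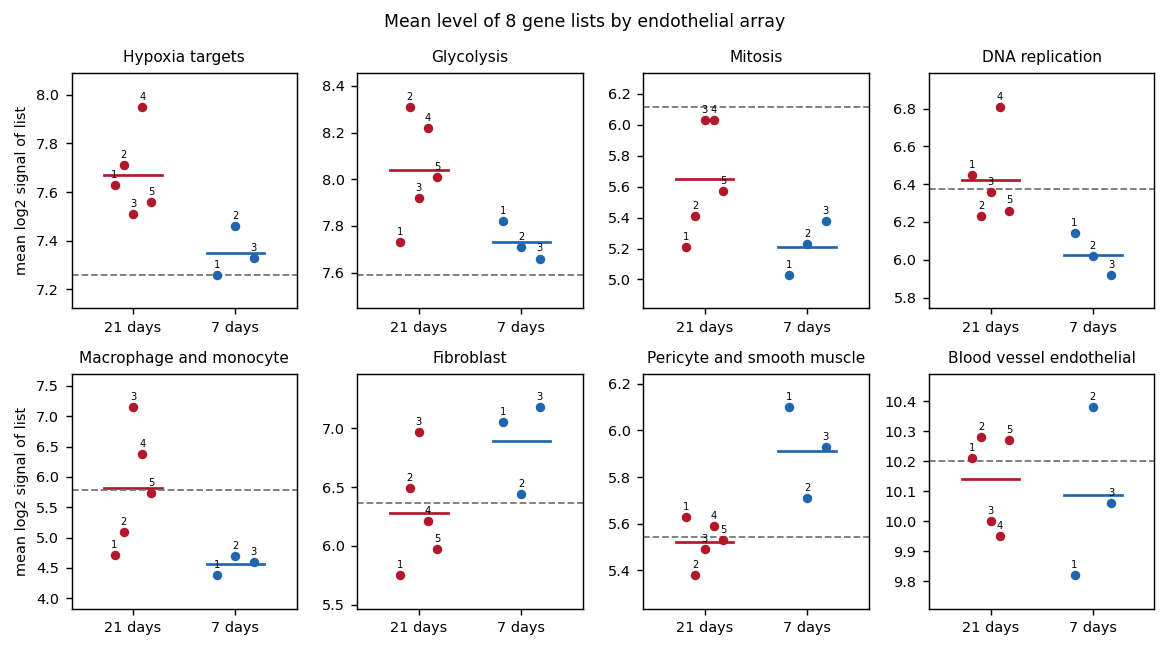
Mean log2 signal of 8 gene lists in each 21-day (red) and 7-day (blue) endothelial array, with replicate numbers, a bar at the group mean and a dashed line at the mean of the untreated endothelial arrays. Macrophage markers of the 21-day arrays run from 4.71 to 7.15 above 4.38 to 4.70 in the 7-day arrays, pericyte and smooth muscle markers from 5.38 to 5.63 below 5.71 to 6.10, and blood vessel endothelial markers overlap.

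Replicate 1 of the 7-day group stood apart. It correlated with the other endothelial arrays at 0.935 to 0.947 across genes, while the highest correlation of each other array was 0.962 to 0.98. Differences also depended on how bright a gene was. The median difference was -0.09 over the 9969 dimmer genes and 0.08 over the 9969 brighter genes. Without 7-day replicate 1 these medians were -0.06 and 0.03, and after renewed quantile normalization of the arrays they were -0.02 and -0.01. Of the 142 genes called higher over 23 arrays all 142 were among the brighter genes, and of the 120 called lower 84 were among the dimmer ones. After renewed quantile normalization 660 genes were higher and 929 lower at an unadjusted p under 0.05, and after median centring 911 were higher and 766 lower.

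**Figure D2:**
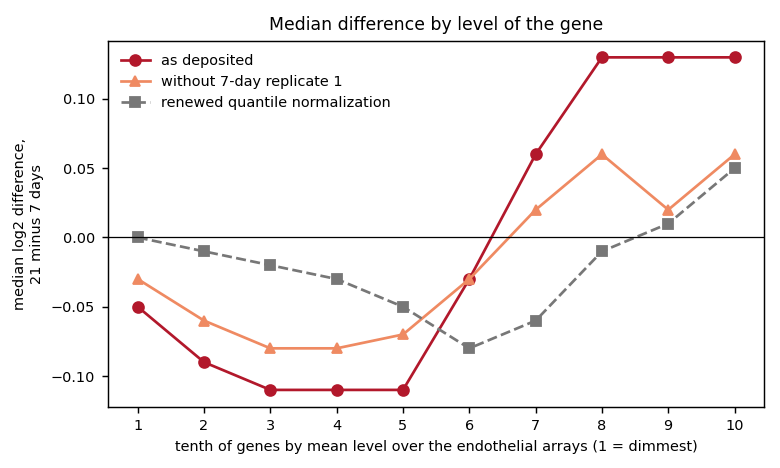
Median log2 difference of 21 minus 7 days (y axis) in 10 equal groups of the 19938 genes ordered by mean endothelial level (x axis), as deposited, without 7-day replicate 1, and after renewed quantile normalization. As deposited, the medians of the 5 dimmest groups lie between -0.11 and -0.05 and those of the 3 brightest at 0.13.

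Targets of hypoxia-inducible factors were mostly higher after 21 days, beginning with Pgk1, which encodes phosphoglycerate kinase. Pgk1 had 10.16, 9.96, 10.07, 10.50 and 9.75 in the 21-day arrays, against 9.18, 9.20 and 9.15 in the 7-day arrays. The groups did not overlap, with a difference of 0.91 ± 0.17 (adjusted p = 0.312). Bnip3, a mitochondrial receptor for mitophagy, had 6.45, 7.13, 6.78, 7.46 and 6.98 in the 21-day arrays, against 5.92, 5.44 and 6.13 in the 7-day arrays. These groups did not overlap either, and the difference was 1.13 ± 0.25 (adjusted p = 0.341). Ero1a, an oxidase that forms disulphide bonds in the endoplasmic reticulum, had 7.46, 8.08, 7.80, 8.10 and 7.56 in the 21-day arrays, against 6.56, 7.21 and 7.15 in the 7-day arrays, a difference of 0.83 ± 0.19. Egln1, the prolyl hydroxylase that marks hypoxia-inducible factors for destruction, had 8.21, 8.45, 7.77, 8.37 and 7.89, against 7.14, 7.65 and 7.46 in the 7-day arrays, a difference of 0.73 ± 0.18. All 4 genes passed in the fit over 23 arrays, at adjusted p = 0.0128 for Pgk1, 0.0382 for Bnip3, 0.0293 for Ero1a and 0.0202 for Egln1. In tumour cells the differences in that fit were 0.29 ± 0.14, 1.37 ± 0.24, 0.61 ± 0.16 and 0.08 ± 0.13, in the same order.

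Of the 30 hypoxia genes measured, 21 had a positive difference and 0 passed, with a median of 0.32. The 21-day arrays lay above the 7-day arrays without overlap in 6 of them, and in 2.0% of all genes. The list averaged 7.51 to 7.95 in the 21-day arrays, 7.26 to 7.46 in the 7-day arrays and 7.20 to 7.37 in untreated endothelial arrays. The highest was 21-day replicate 4, also highest in epithelial and tumour cell markers, and the part of tumour cell RNA in it was not tested. Not all members shared the direction. Slc2a1, the glucose transporter of endothelial cells, had 9.19, 10.04, 9.17, 9.43 and 9.90 in the 21-day arrays, against 9.23, 9.30 and 11.32 in the 7-day arrays. Its single highest value was 7-day replicate 3, and the difference was -0.40 ± 0.44. Car9, a carbonic anhydrase that marks severe hypoxia in tumours, stayed at 3.58 to 4.45 in the 21-day arrays and 3.69 to 3.87 in the 7-day arrays, with a difference of 0.13 ± 0.18. Vegfa, the main ligand of the VEGF receptors, had 6.80, 7.74, 8.53, 8.81 and 7.21 in the 21-day arrays, against 7.16, 6.79 and 5.58 in the 7-day arrays. Its difference of 1.30 ± 0.65 became 0.22 ± 0.55 with the macrophage marker mean as a covariate, and 0.74 without the 3 endothelial arrays highest in macrophage markers. That marker mean was lower in every 7-day array (4.38 to 4.70) than in every 21-day array (4.71 to 7.15). Values with this covariate, here and below, therefore cannot fully separate macrophage content from treatment time. The median of the hypoxia list was 0.27 with that covariate, 0.24 without those arrays and 0.26 after renewed quantile normalization. In tumour cells 23 of the 30 hypoxia genes had a positive difference, with a median of 0.17, against 49.2% of all genes.

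Sequences upstream of Pgk1 and Bnip3 are shown because hypoxia-inducible factors are known to bind promoters at the letters ACGTG, which read as CACGT when they lie on the opposite strand. The 250 bases before the RefSeq gene start (GRCm38.p6) are given 5′ to 3′ on the strand of the gene, with these letters in capitals. In Bnip3 the matches on both strands overlap in a single run of 6 letters.
Pgk1, chrX:106186850-106187099, plus strand: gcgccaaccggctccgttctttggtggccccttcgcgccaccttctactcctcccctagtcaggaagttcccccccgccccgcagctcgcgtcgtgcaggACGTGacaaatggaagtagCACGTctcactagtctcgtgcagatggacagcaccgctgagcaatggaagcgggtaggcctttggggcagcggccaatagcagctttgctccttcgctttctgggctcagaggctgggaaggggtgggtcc
Bnip3, chr7:138909507-138909756, minus strand: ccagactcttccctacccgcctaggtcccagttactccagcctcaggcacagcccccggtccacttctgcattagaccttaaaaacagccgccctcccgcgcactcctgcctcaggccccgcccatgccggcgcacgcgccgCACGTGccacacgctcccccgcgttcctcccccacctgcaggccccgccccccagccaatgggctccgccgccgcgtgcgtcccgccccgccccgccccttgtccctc
The letters occur in 16.6% of 32851 promoter windows of this length, and in 18 of the 25 hypoxia genes with a window (72.0%). The first share counts windows and the second counts genes with a match in any of their windows, so the units differ. The list was composed of known targets, so this share describes the list and says nothing of binding in these cells.

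Glycolysis and lactate handling were measured by lists that share genes with the hypoxia list. Of 16 glycolysis genes 13 had a positive difference, 0 passed, and the median was 0.35 (0.29 after renewed quantile normalization). Tpi1, the isomerase that joins both arms of glycolysis, differed by 0.95 ± 0.40 (0.50 with the macrophage covariate), Pkm, the last enzyme of the pathway, by 0.43 ± 0.14 and Aldoa, an aldolase, by 0.35 ± 0.11. Pkm had 11.12 to 11.50 in the 21-day arrays and 10.74 to 11.11 in the 7-day arrays, which did not overlap. Hk2 and Pfkfb3, which control the entry and the pace of glycolysis, differed by 0.36 ± 0.19 and 0.54 ± 0.40 with overlapping groups.

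Of 9 genes of lactate and pH handling, 8 had a positive difference, with a median of 0.36 (0.28 after renewed quantile normalization), and 0 passed. Ldha, the lactate dehydrogenase subunit that favours lactate, had 9.99, 10.37, 9.81, 10.48 and 10.30 in the 21-day arrays, against 9.69, 9.93 and 9.88 in the 7-day arrays, and differed by 0.36 ± 0.18. Slc16a1, a transporter that can take up lactate, had 5.15, 7.08, 5.83, 5.36 and 4.57 in the 21-day arrays, against 4.22, 4.94 and 4.39 in the 7-day arrays. Replicate 2 of the 21-day group was highest, replicate 5 lay within the 7-day range, and the difference was 1.08 ± 0.48, or 0.71 without replicate 2. Slc16a3, a lactate exporter, differed by 0.28 ± 0.53 with wide spreads in both groups. Car2, a carbonic anhydrase of the cytosol, had 5.11 to 6.95 in the 21-day arrays and 4.06 to 5.02 in the 7-day arrays, with a difference of 1.51 ± 0.43. It was called in the fit over 23 arrays, at adjusted p = 0.0313.

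The balance of mitochondrial genes depended on the arrays included. Of 27 genes of oxidative phosphorylation 19 had a positive difference, with a median of 0.22 that was 0.10 with the macrophage covariate and 0.48 without 7-day replicate 1. Without the 3 endothelial arrays highest in macrophage markers it was 0.00, with 14 of 27 positive. Atp5c1, a subunit of ATP synthase, differed by 0.69 ± 0.18 and Idh2, an enzyme that makes NADPH in mitochondria, by 1.04 ± 0.28. The groups did not overlap in either. Idh2 differed by 0.56 with the macrophage covariate.

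**Figure D3:**
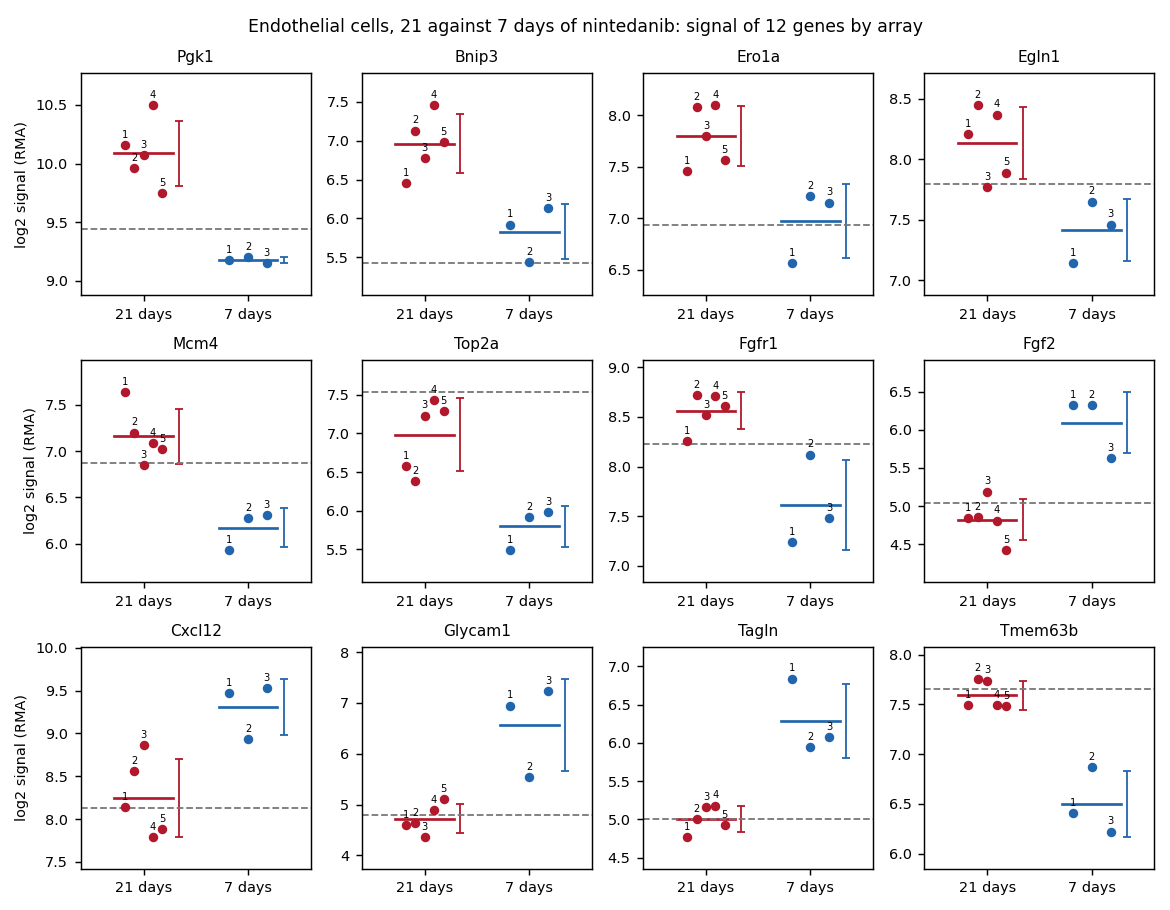
Log2 signal (RMA) of 12 genes in each 21-day (red) and 7-day (blue) endothelial array, with replicate numbers, the group mean as a bar, the SD as a bracket and the mean of the 3 untreated endothelial arrays as a dashed line. In each panel shown the 2 groups do not overlap, with Fgf2, Cxcl12, Glycam1 and Tagln lower after 21 days and the other 8 genes higher.

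Genes of DNA replication and mitosis were higher in most members after 21 days, and near or below the untreated level after both times. Mcm4 had 7.64, 7.20, 6.85, 7.09 and 7.02 in the 21-day arrays, against 5.93, 6.28 and 6.31 in the 7-day arrays. The lowest 21-day array lay above the highest 7-day array, and the difference was 0.99 ± 0.17 (adjusted p = 0.312). Rrm1, the large subunit of the enzyme that makes deoxynucleotides, differed by 0.96 ± 0.22 and Pola1, a subunit of the primase polymerase, by 0.58 ± 0.13, without overlap. Of 26 DNA replication genes 25 had a positive difference, with a median of 0.37 (0.30 with 22 positive after renewed quantile normalization) and 0 passing. Their mean was 6.23 to 6.81 in the 21-day arrays, 5.92 to 6.14 in the 7-day arrays and 6.15 to 6.63 in the untreated arrays.

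Top2a, the topoisomerase of dividing cells, had 6.58, 6.38, 7.23, 7.43 and 7.29 in the 21-day arrays, against 5.49, 5.92 and 5.98 in the 7-day arrays and 7.43, 7.36 and 7.82 in untreated arrays. All 21-day values lay above all 7-day values, and the upper ones overlapped the untreated arrays. The difference between 21 and 7 days was 1.19 ± 0.26 (adjusted p = 0.341). Kif11, a motor of the mitotic spindle, had 5.39, 5.23, 5.52, 5.88 and 5.29 in the 21-day arrays, against 4.87, 4.78 and 4.92 in the 7-day arrays, a difference of 0.61 ± 0.16. Cdk1, the kinase that starts mitosis, differed by 0.90 ± 0.30. Mki67, a nuclear protein of cycling cells, differed by 0.28 ± 0.42, since 7-day replicates 2 and 3 (6.52 and 6.81) lay among the 21-day arrays (5.70 to 6.91).

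Of 30 mitosis genes 29 had a positive difference, with a median of 0.44 (0.37 with 28 positive after renewed quantile normalization) and 0 passing. The list averaged 5.21, 5.41, 6.03, 6.03 and 5.57 in the 21-day arrays, against 5.03, 5.23 and 5.38 in the 7-day arrays. The highest were the 21-day replicates 3 and 4, which were also highest in macrophage markers, and replicate 1 lay within the 7-day range. With the macrophage marker mean, which did not overlap between the groups, as a covariate the median was 0.07 with 17 positive. Without the 3 endothelial arrays highest in macrophage markers it was 0.18 with 22 positive. The DNA replication list kept a median of 0.23 with the covariate and 0.27 without those arrays. Mcm4 was at 1.19 and Top2a at 0.92 with the covariate. The tumour cells of the same study had a median difference of 0.78 in the mitosis list between 21 and 7 days, with all 30 positive, against 49.2% of all genes, so the direction in mitosis genes was common to both cell types. Whether dividing cells of another type contributed to the endothelial arrays was not tested.

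Sequences upstream of Top2a and Kif11 are shown because promoters of mitotic genes are known for CCAAT boxes and for the cell cycle homology region. The window, strand and source are as above, and the capitals mark CCAAT, which reads as ATTGG from the opposite strand, and TTTGAA, which reads as TTCAAA from the opposite strand.
Top2a, chr11:99024190-99024439, minus strand: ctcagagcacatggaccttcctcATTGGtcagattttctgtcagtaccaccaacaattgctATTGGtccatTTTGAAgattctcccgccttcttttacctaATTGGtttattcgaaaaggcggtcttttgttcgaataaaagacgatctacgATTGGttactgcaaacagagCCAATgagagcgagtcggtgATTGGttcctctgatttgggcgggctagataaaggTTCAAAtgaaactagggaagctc
Kif11, chr19:37376132-37376381, plus strand: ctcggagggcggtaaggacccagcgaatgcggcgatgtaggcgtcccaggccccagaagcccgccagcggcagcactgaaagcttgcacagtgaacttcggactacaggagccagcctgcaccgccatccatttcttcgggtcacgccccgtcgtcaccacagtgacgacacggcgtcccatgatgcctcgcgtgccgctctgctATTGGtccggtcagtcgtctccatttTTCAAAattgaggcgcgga
Among mitosis genes with a window, 21 of 27 (77.8%) hold CCAAT or ATTGG, against 33.8% of all 32851 windows. TTTGAA or TTCAAA occurs in 10 of the 27 (37.0%), against 16.0% of all windows. As for the hypoxia letters, the list shares count genes and the others count windows. A match of letters is a description of the sequence and not a site of binding.

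Among the targets of nintedanib and their ligands, the FGF axis held the clearest differences. Fgfr1, a receptor through which FGF2 acts on endothelium, had 8.26, 8.72, 8.52, 8.71 and 8.61 in the 21-day arrays, against 7.24, 8.12 and 7.48 in the 7-day arrays. The groups did not overlap, and the difference was 0.95 ± 0.20 (adjusted p = 0.341, or 0.0106 in the fit over 23 arrays). Fgf2 had 4.84, 4.85, 5.19, 4.81 and 4.42 in the 21-day arrays, against 6.33, 6.33 and 5.63 in the 7-day arrays and 5.18, 5.12 and 4.82 in the untreated arrays. The 21-day values lay near the untreated ones and under every 7-day value, with a difference of -1.27 ± 0.20 (adjusted p = 0.312, or 0.0221 over 23 arrays). Fgf2 differed in tumour cells too, by -1.07 ± 0.24 in the 23-array fit. Its difference between cell types was -0.20 ± 0.36 (adjusted p = 0.902). For Fgfr1 the tumour cell difference was -0.11 ± 0.14, and that between cell types 1.06 ± 0.21 (adjusted p = 0.0778). In endothelial cells the other receptors Fgfr3 and Fgfr4 differed by -0.32 ± 0.20 and -0.48 ± 0.17. Of the 8 measured genes of this list 3 had a positive difference, beside 42.2% of all genes, with a median of -0.12.

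VEGF receptor transcripts differed by less than their standard errors. Kdr, the main signalling receptor, had 10.10, 10.32, 9.98, 9.86 and 10.29 in the 21-day arrays, against 9.81, 10.67 and 10.01 in the 7-day arrays, a difference of -0.05 ± 0.22. Flt1, a decoy-like receptor with high affinity for VEGF, differed by -0.20 ± 0.25 and Flt4, the receptor for VEGF-C, by -0.01 ± 0.29. Vegfc differed by -0.81 ± 0.30, with 7.16 to 8.30 in the 21-day arrays and 8.27 to 8.77 in the 7-day arrays. Placental growth factor, Pgf, was at 7.50 in 21-day replicate 4 and at 4.39 to 6.35 in the others of that group, and differed by 0.63 ± 0.62.

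PDGF genes showed no separation of the groups. Pdgfb, the ligand by which endothelial cells recruit pericytes, had 8.65, 9.37, 8.61, 9.28 and 8.66 in the 21-day arrays, against 7.64, 8.21 and 8.67 in the 7-day arrays and 7.46, 7.98 and 8.51 in the untreated arrays. Its difference of 0.74 ± 0.30 had an adjusted p of 0.506, and it was 0.47 without 7-day replicate 1. The receptor Pdgfrb, a pericyte transcript, differed by -0.47 ± 0.33. Pdgfra, listed here as a fibroblast marker, differed by 1.29 ± 0.67, and by 0.14 ± 0.55 with the macrophage covariate. It was brighter in tumour cells, with means of 9.89 after 21 days and 8.91 after 7 days, against 7.05 and 5.76 in endothelial arrays.

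ERK lies downstream of these receptors and induces genes that act as its own brakes. Of 14 such genes 11 had a positive difference, 0 passed, and the median was 0.49. Dusp6, a phosphatase of ERK, had 10.68, 10.63, 10.50, 9.61 and 9.67 in the 21-day arrays, against 9.53, 9.53 and 9.34 in the 7-day arrays. All 21-day values were above all 7-day values, with replicates 4 and 5 close to them, and the difference was 0.75 ± 0.26. Etv1, a transcription factor downstream of ERK, differed by 0.91 ± 0.43 and Spred2, an inhibitor of Raf activation, by 0.49 ± 0.26. Dusp5, an ERK phosphatase of the nucleus, went the other way at -0.26 ± 0.14. After renewed quantile normalization the median was 0.40 with 8 positive, without 7-day replicate 1 it was 0.25, and with the macrophage covariate it was 0.31.

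**Figure D4:**
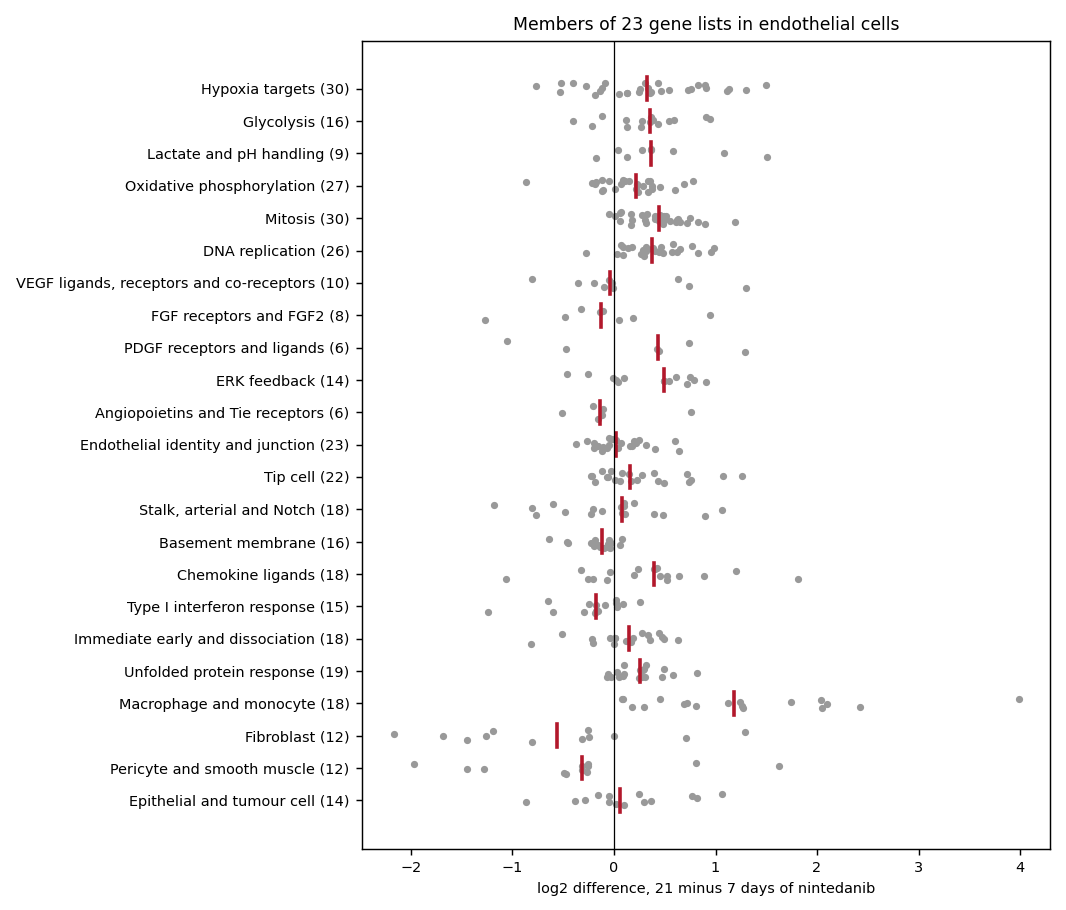
Log2 difference of 21 minus 7 days for each measured member (grey points) of 23 gene lists in endothelial cells, with the list median as a red bar and the number of members in brackets. Macrophage markers have a median of 1.18, fibroblast markers -0.56, mitosis genes 0.44 and hypoxia genes 0.32, and endothelial identity genes centre on 0.02.

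Genes of endothelial identity differed in both directions, with a balance that moved with the macrophage markers. Of 23, 12 had a positive and 11 a negative difference, with a median of 0.02 (-0.03 after renewed quantile normalization). With the macrophage covariate 21 of 23 were positive, with a median of 0.23, and without the 3 endothelial arrays highest in macrophage markers 18 were, with a median of 0.12. Of the 14 blood vessel markers 6 had a positive difference, against 14 with the covariate and 12 without those arrays. Pecam1, an adhesion molecule of all endothelium, differed by -0.07 ± 0.17 and Tek, the angiopoietin receptor, by -0.12 ± 0.32. Cldn5, the claudin that seals endothelial tight junctions, did not overlap between the groups, with 10.52, 10.70, 10.48, 10.44 and 10.45 in the 21-day arrays, against 9.59, 10.13 and 9.90 in the 7-day arrays. The difference was 0.64 ± 0.16 (adjusted p = 0.382, or 0.0486 over 23 arrays), and it was 0.80 with the macrophage covariate. In untreated arrays Cldn5 had 10.08, 10.52 and 10.68.

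Tip cells lead a sprout and stalk cells form its lumen. Of 22 tip cell genes 15 had a positive difference, with a median of 0.16 (0.09 after renewed quantile normalization and 0.36 with the macrophage covariate) and 0 passing. Apln, a peptide released by sprouting endothelium, had 10.47, 10.26, 9.98, 9.82 and 10.05 in the 21-day arrays, against 7.95, 10.07 and 8.55 in the 7-day arrays. Replicate 2 of the 7-day group lay among the 21-day arrays and its other arrays lay below, with a difference of 1.26 ± 0.46 that was 0.81 without 7-day replicate 1. Kcne3, a potassium channel subunit, had 9.20 to 9.95 in the 21-day arrays and 8.05 to 8.62 in the 7-day arrays, a difference of 1.07 ± 0.33. Esm1, a proteoglycan of tip cells, was at 5.60 and 6.52 in replicates 1 and 5 of the 21-day group, at 4.13 to 4.62 in its others, at 4.12 to 4.38 in the 7-day arrays and at 5.75 to 7.85 in the untreated arrays. Angpt2, an antagonist of the Tie2 receptor at remodelling vessels, differed by 0.76 ± 0.44, by 0.18 without 7-day replicate 1 and by 1.26 without 7-day replicate 3. Dll4, the Notch ligand of tip cells, differed by 0.39 ± 0.26, and by 0.16 without 7-day replicate 1. Nrarp, a Notch target, differed by 0.90 ± 0.27, and by 0.57 without 7-day replicate 3.

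Stalk, arterial and Notch genes differed in both directions. Of 18, 10 had a positive and 8 a negative difference and 0 passed, with a median of 0.08 that was 0.14 with the macrophage covariate and -0.05 after renewed quantile normalization. Gja5, a connexin of arteries, had 6.28, 6.35, 4.61, 4.91 and 4.60 in the 21-day arrays, against 5.13, 6.67 and 7.80 in the 7-day arrays and 7.42, 8.23 and 8.44 in the untreated arrays. Both treated groups spread widely and overlapped, and the difference of -1.18 ± 0.62 was -0.42 with the macrophage covariate and -0.55 without 7-day replicate 3. Sema3g, an arterial semaphorin, had 4.89 to 5.39 in the 21-day arrays and 5.46 to 6.43 in the 7-day arrays, a difference of -0.77 ± 0.23 that was -0.49 without 7-day replicate 3. Of 12 flow-responsive genes 3 had a positive and 9 a negative difference, beside 42.2% positive over all genes, with a median of -0.18. Klf2 and Nos3, a transcription factor and the nitric oxide synthase that laminar flow induces, differed by -0.49 ± 0.19 and -0.39 ± 0.20, and by -0.21 and -0.09 with the macrophage covariate. Thbs1, an inhibitor of angiogenesis, differed by -1.19 ± 0.43. Prox1, the master regulator of lymphatic identity, was dim throughout, at 3.68 to 4.16 in the 21-day arrays and 4.26 to 4.79 in the 7-day arrays.

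Among genes of leukocyte traffic, Glycam1 and Cxcl12 had lower signals after 21 days. Glycam1, a mucin ligand of L-selectin known from high endothelial venules, had 4.60, 4.64, 4.36, 4.89 and 5.10 in the 21-day arrays, against 6.95, 5.54 and 7.23 in the 7-day arrays and 4.46, 5.29 and 4.63 in the untreated arrays. The 21-day values matched the untreated range apart from replicate 3, which was lower, and the difference was -1.85 ± 0.36 (adjusted p = 0.312, or 0.00412 over 23 arrays). Cxcl12, a chemokine that holds and recruits CXCR4-bearing cells, had 8.14, 8.56, 8.86, 7.79 and 7.88 in the 21-day arrays, against 9.47, 8.93 and 9.53 in the 7-day arrays and 7.93, 8.35 and 8.11 in the untreated arrays. It differed by -1.06 ± 0.25 without overlap, and by -1.07 with the macrophage covariate.

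For other chemokine genes the macrophage covariate altered the differences. Of 18 chemokine ligands 12 had a positive difference, with a median of 0.40 that was -0.15 with the macrophage covariate. Ccl7 and Ccl9, attractants of monocytes, differed by 1.81 ± 0.66 and 1.20 ± 0.57, and by 0.72 and 0.06 with the covariate. Cd74, the chaperone of MHC class II molecules, had 7.51, 5.43, 8.33, 7.05 and 8.13 in the 21-day arrays, against 3.84, 4.83 and 5.75 in the 7-day arrays and 9.15, 8.0 and 7.30 in the untreated arrays. Its difference of 2.48 ± 0.69 was 1.59 with the covariate, and the part of macrophage RNA in it was not tested. Adhesion molecules had a median of 0.13 (-0.04 without 7-day replicate 1), with Vcam1 at -0.28 ± 0.15. Of 15 genes of the type I interferon response 5 had a positive and 10 a negative difference, beside 42.2% positive over all genes. The list averaged 5.06, and its median was -0.18, or -0.10 after renewed quantile normalization. Ifit3, an interferon-induced antiviral gene, was at -1.24 ± 0.47 with 7-day replicate 1 highest at 6.17. Without that array Ifit3 was at -0.57.

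Outside these lists, the genes with the smallest p-values were of diverse function. Cryz, a quinone reductase, had 7.79, 6.96, 7.33, 7.62 and 7.58 in the 21-day arrays, against 5.81, 6.19 and 6.17 in the 7-day arrays, a difference of 1.40 ± 0.22. Tmem63b, an ion channel opened by osmotic or mechanical stress, had 7.49, 7.76, 7.74, 7.49 and 7.48 in the 21-day arrays, against 6.41, 6.87 and 6.22 in the 7-day arrays, a difference of 1.09 ± 0.18. In both genes every 21-day array lay above every 7-day array.

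The mitochondrial ribosome genes Mrps9 and Mrps17 differed by 1.26 ± 0.24 and 0.80 ± 0.15. Rcc2, a regulator of chromosome condensation, differed by 0.75 ± 0.14, Pdlim2, an adaptor of the actin cytoskeleton, by 1.08 ± 0.18 and Pbx2, a homeobox transcription factor, by 0.82 ± 0.16. Rnf24 (1.53 ± 0.27), Zmat2 (1.40 ± 0.26) and Nt5dc2 (1.62 ± 0.30) completed the 12 genes of smallest p in that direction. All 12 had 21-day arrays above all 7-day arrays, which the choice by p favours.

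On the lower side, most genes of smallest p were dim. Nphs1, Vps18, Epop, Olig2, Rab44, Zfat, Syndig1l and Abcc8 had differences between -0.72 and -0.49, with 21-day means of 3.79 to 5.41. Bmp15, a growth factor known from oocytes, differed by -1.32 ± 0.26 and Itm2a, a membrane protein, by -1.08 ± 0.21. Of the lists, fibroblast marker Col6a3, a collagen VI chain, reached the same adjusted p of 0.312 with 5.67 to 6.21 in the 21-day arrays and 6.38 to 6.94 in the 7-day arrays. Larger differences called over 23 arrays alone were those of Angptl7 (2.37 ± 0.58), Mras (2.35 ± 0.58), Cst6 (2.11 ± 0.64), Taf9b (2.07 ± 0.57), Mme (1.99 ± 0.56), Acpp (1.96 ± 0.46) and Tspan5 (1.82 ± 0.37). Lower ones were Qtrt2 (-1.76 ± 0.51), Pmm1 (-1.63 ± 0.49), Efemp1 (-1.42 ± 0.41) and Lmcd1 (-1.38 ± 0.41), beside Thy1, Rgs5, Glycam1 and Bmp15. Qtrt2 and Pmm1 were highest in 7-day replicate 1, at 8.76 and 8.11, and without it they differed by -1.03 and -0.91. For Angptl7 the difference was 1.46 with the macrophage covariate, and for Mme 1.12. Means in 21-day tumour cells were 10.04 for Angptl7, 10.7 for Mme, 9.63 for Acpp, 9.38 for Cst6 and 8.72 for Mras. The highest 21-day endothelial arrays had 8.79, 9.33, 7.85, 8.36 and 8.59, in the same order. These values were 8.91 and 8.93 for Tspan5, and 3.51 and 8.04 for Taf9b. In tumour cells Angptl7 differed by 2.6 ± 0.52 in the 23-array fit, and the rest of these genes by 0.02 to 0.9. The part of tumour cell RNA in these differences was not tested.

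To ask whether a difference between 21 and 7 days was particular to endothelial cells, the same difference in tumour cells was subtracted in the fit over all 23 arrays. That fit takes a single spread for both cell types, although endothelial arrays varied more. It also treats all arrays as independent, while sharing of tumours between the cell types is not known. Of 19938 genes 7 (0.0351%) passed, 5 with a larger (0.0251%) and 2 with a smaller value (0.01%) in endothelial cells, and 1959 (9.83%) had an unadjusted p under 0.05. The count was 199 without 7-day endothelial replicate 2, 32 without replicate 1 and 11 without replicate 3. It was 13 without 21-day endothelial replicate 2 or 5, and 12 without 21-day tumour replicate 2 or 5. For most of the 7 genes it was the tumour cells that differed between the times. Galnt3, a glycosyltransferase, differed by -0.03 ± 0.15 in endothelial cells and -2.28 ± 0.14 in tumour cells. The same held for Fermt1, an activator of integrins (-0.17 ± 0.18 in endothelial and -2.13 ± 0.17 in tumour cells), and Nes, an intermediate filament protein (-0.12 ± 0.20 and -1.95 ± 0.19). Rgl1, a Ras effector (0.33 ± 0.18 in endothelial and 2.51 ± 0.17 in tumour cells), and Ptgfr, a prostaglandin receptor (-0.04 ± 0.16 and 1.59 ± 0.15), formed the 2 on the other side.

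Tmem63b and Esyt3 passed with a part from endothelial cells. Tmem63b differed by 1.09 ± 0.15 in endothelial and -0.28 ± 0.14 in tumour cells, and the difference between cell types was 1.36 ± 0.21 (adjusted p = 0.00707). Tumour cells had 7.65 to 8.13 after 21 days and 7.87 to 8.23 after 7 days, close to the 21-day endothelial level. Esyt3, a lipid transfer protein at membrane contacts, differed by 0.50 ± 0.15 in endothelial and -0.83 ± 0.14 in tumour cells, a difference of 1.32 ± 0.21 (adjusted p = 0.00934). In the fit of the endothelial arrays alone the endothelial standard errors were 0.18 for Tmem63b and 0.12 for Esyt3. Glycam1 (-1.89 ± 0.35) and Cxcl12 (-1.59 ± 0.30) lay short of the threshold, both at adjusted p = 0.0568. Glycam1 stayed at 4.33 to 4.55 in 21-day and 4.34 to 4.49 in 7-day tumour cells. Among the list genes above, Mcm4 differed by 0.43 ± 0.23 between cell types (adjusted p = 0.572), so no difference between the cell types was detected for it.

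**Figure D5:**
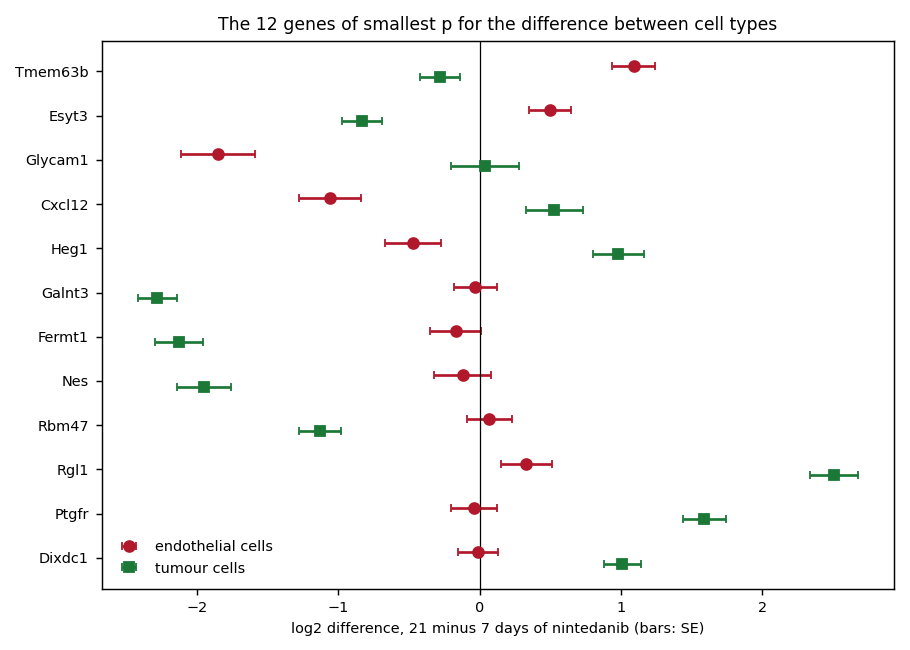
Log2 difference of 21 minus 7 days in endothelial (red circles) and tumour cells (green squares) for the 12 genes of smallest p for the difference between cell types, with standard errors as bars, from the fit over 23 arrays. Tmem63b, Glycam1 and Cxcl12 differ more in endothelial cells, and Galnt3, Fermt1, Nes, Rgl1 and Ptgfr in tumour cells.

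Beside the untreated endothelial arrays, the named genes fell at different places. The comparisons of each time with the untreated group share arrays with each other and with the comparison above, and limma called 0 genes in either (0.0%). At an unadjusted p under 0.05 there were 833 genes (4.18%) after 21 days and 1629 (8.17%) after 7 days. Bnip3 differed from the untreated mean by 1.54 after 21 days and 0.41 after 7 days. Pgk1 differed from it by 0.65 after 21 days and -0.27 after 7 days. In Fgf2 these values were -0.22 after 21 days and 1.05 after 7 days, in Glycam1 -0.08 and 1.78, in Cxcl12 0.11 and 1.18, and in Tmem63b -0.06 and -1.15, in the same order. In the last 4 genes the 7-day arrays lay away from the untreated level and the 21-day arrays near it. In Bnip3 and Pgk1 the 21-day arrays lay further from the untreated level than the 7-day arrays. Tgm2, a transglutaminase, had 9.26 to 9.61 after 21 days, 9.53 to 9.66 after 7 days and 8.73 to 8.85 without treatment, and differed by -0.11 ± 0.10 between the times.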

How the data were processed

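RNA of sorted cells was hybridised to 23 Affymetrix arrays after target synthesis with NuGEN kits, per the labels. The deposited log2 values are signals per transcript cluster, made by the authors with RMA and the oligo package per the submitters' processing notes. No version is named there. RMA equalises the distributions of the arrays, so differences are relative to the other transcripts, and no batch was given. The number of arrays limits the precision.

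The table held 35556 clusters, of which 21789 named 1 gene, 1621 several and 12146 none in the platform annotation. Symbols were updated for 21698 through the RefSeq table (GRCm38.p6). For 999 genes the cluster with the highest mean over 23 arrays was kept, which left 19938 genes with values from 1.93 to 14.06 and no filter. Of 593 list symbols 552 were measured, 2 under an older name.

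Groups were compared with limma 3.58.1 in R 4.3.3, with a mean per group over the 11 endothelial arrays, two-sided p-values and Benjamini-Hochberg adjustment over all genes. The fits were tested on simulated data. Lists were described by counts and medians. Named genes were the 12 per direction with the smallest p, 8 per direction with the largest differences among those called over 23 arrays, up to 4 per list, 6 per direction for the difference between cell types, and a panel. Predicted genes, small RNAs and olfactory or vomeronasal receptors were left out of the first 2 choices. The members and lists were chosen with earlier results of these data known. Alternatives were a fit over 23 arrays or the 8 arrays of both groups, only genes above the 30th or 50th percentile of level, a variance trend, array weights, the mean of a gene's clusters, renewed quantile normalization, median centring, macrophage and immediate early list means as covariates, the replicate number as a block, and leaving out each array. Leaving out the 3 endothelial arrays highest in macrophage markers (21-day replicates 3 and 4 and untreated replicate 1) was added after seeing the data.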

Additional observations from a re-analysis of the deposited data

Results flagged for a closer look

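Of 162 named genes and gene lists checked, 4 genes had 1 of the 5 long-term endothelial arrays far from the other 4 by Dixon's test. The test marks about 1 in 20 groups by chance, so 4 of 162 is fewer than chance gives. Rgs5 was lowest at 4.96 in replicate 2, Angpt2 was lowest at 6.96 in replicate 3, Pdgfrb was highest at 7.29 in replicate 3 and Ptgfr was lowest at 3.73 in replicate 4. Without long-term replicate 2 the Rgs5 difference was -1.55, without replicate 3 that of Angpt2 was 0.99 (0.18 without 7-day replicate 1) and that of Pdgfrb was -0.71.

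The difference between 21 and 7 days was itself different between endothelial and tumour cells in 7 genes. Endothelial minus tumour values were 2.25 for Galnt3, 1.96 for Fermt1, 1.83 for Nes, 1.36 for Tmem63b and 1.32 for Esyt3, and -2.18 for Rgl1 and -1.63 for Ptgfr. Only Tmem63b and Esyt3 of these had an endothelial difference above 3 times its standard error in the fit over 23 arrays.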

How the results depend on the processing

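The count of 0 genes between 21 and 7 days held in 12 of 13 other settings, among them both dim-gene filters, array weights and both renewed scalings. The exception was 1 fit over all 23 arrays, which called 262. At an unadjusted p under 0.05 there were 1875 genes in the endothelial fit, against 997 expected if no gene differed. That count was 997 without the 3 endothelial arrays highest in macrophage markers. It was 1180 with the replicate block, 1191 with the macrophage covariate and 1973 with array weights. When each array was left out it ran from 1436 to 2653. By the adjusted test, leaving out each array gave 0 to 5 genes. The 5 arose without 7-day replicate 2 and were Glycam1 (-2.37), Bmp15 (-1.71), Mrps9 (1.60), and, named after their values were seen, Kcnj2 (2.45) and Poldip2 (1.62). Of the 117 named genes, 105 kept the sign of their 21 minus 7 day difference in all alternatives run and 12 did not, none of which passed the test in the settings that turned them. Many of the 117 were chosen by the p or size of this same difference, which favours a kept sign. The share over all genes is not given, so the count of 105 does not measure robustness. With the macrophage marker mean as a covariate the turned log2 differences were 0.09 for Cdh5, 0.00 for Flt1, 0.45 for Flt4, 0.17 for Kdr, -0.15 for Mki67, 0.12 for Pecam1, -0.07 for Slc16a3 and 0.15 for Tek. With the immediate early mean as a covariate they were 0.08 for Cdh5, 0.09 for Flt4, 0.04 for Kdr, 0.00 for Pecam1 and 0.05 for Tek. Without the 3 endothelial arrays highest in macrophage markers, an alternative chosen after seeing the data, they were 0.11 for Cdh5, 0.19 for Flt4, 0.08 for Kdr, -0.01 for Mki67, 0.04 for Pecam1, 0.01 for Ptgfr and 0.01 for Tek. Median centring gave 0.01 for Cdh5 and 0.02 for Flt4, renewed quantile normalization 0.05 for Galnt3 and 0.05 for Ptgfr, array weights 0.00 for Galnt3 and the replicate block 0.02 for Cdh5, -0.01 for Mki67 and 0.00 for Ptgfr. When each array was left out, the differences ran over 0.00 to 0.21 for Car9, -0.31 to 0.13 for Cdh5, -0.19 to 0.14 for Flt4, -0.08 to 0.05 for Galnt3, -0.23 to 0.21 for Kdr and -0.24 to 0.62 for Mki67. They ran over -0.21 to 0.02 for Pecam1, -0.12 to 0.68 for Slc16a3, -0.77 to 0.28 for Slc2a1 and -0.48 to 0.17 for Tek. The sign of Slc2a1 turned without 7-day replicate 3, that of Mki67 without 7-day replicate 1 and that of Slc16a3 without 7-day replicate 3.

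The count of 7 genes for the difference between cell types was 4 above the 50th percentile of level, 12 with a variance trend, 12 after renewed quantile normalization and 7 to 199 when each array was left out. Replicate numbers did not pair the samples: deviations of same-numbered 21-day and 7-day arrays correlated at 0.09, -0.11 and -0.02, and 0 of 3 short-term arrays correlated best with their own number. With the replicate number as a block, 0 genes were called between 21 and 7 days and 4 between cell types. The number of arrays, 3 in the 7-day group, limits the precision. The causes of these shifts in counts were not tested.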

Other observations

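Genes of the unfolded protein response, by which cells match protein folding to load, had a positive difference in 16 of 19 members, with a median of 0.26 and 0 passing. Pdia6, a protein disulphide isomerase, had 9.82, 8.91, 9.55, 9.74 and 9.32 in the 21-day arrays, against 8.52, 8.72 and 8.70 in the 7-day arrays, a difference of 0.82 ± 0.21. The list median was 0.09, with 13 of 19 positive, without the 3 endothelial arrays highest in macrophage markers, 0.16 with the macrophage covariate and 0.15 after renewed quantile normalization. Hspa1a, an inducible heat shock chaperone, had 7.71, 7.32, 6.87, 8.10 and 7.99 in the 21-day arrays, against 8.33, 8.33 and 8.60 in the 7-day arrays and 6.78, 6.06 and 7.54 in the untreated arrays, and differed by -0.82 ± 0.34 between the times. Fos, an immediate early gene that cell isolation can induce, had 9.44 to 10.04 in the 21-day arrays, 9.01 to 9.70 in the 7-day arrays and 7.95 to 8.97 in the untreated arrays.

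Msmo1 and Nsdhl, enzymes of sterol synthesis, had their highest values in 7-day replicate 1, at 8.93 and 8.83, while the 21-day arrays lay at 5.47 to 6.43 and 6.42 to 6.93. Id3, a target of BMP signals in endothelium, had 9.34 to 9.99 in the 21-day arrays and 9.86 to 10.59 in the 7-day arrays, a difference of -0.65 ± 0.19. Kit, known from mast cells and from some endothelium, had 8.04 to 9.20 in the 21-day arrays and 7.08 to 8.37 in the 7-day arrays, while the list of mast cell markers that holds it had a median of -0.01.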
